A study of Mus musculus with 17 samples.

Results

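The transcriptome of untreated mouse choroid plexus was described from the 5 libraries labelled CTRL, out of 17 libraries in the series. They were chosen by their label alone and are described on their own, without comparison with other groups. Each CTRL library was made from total RNA of whole choroid plexus dissected from the lateral ventricles of C57BL/6 mice that carry no stated transgene. The label CTRL marks the group that received no dextran sodium sulfate, the agent of the other groups. Age and sex are not among the labels, and the labels do not say whether the 5 samples came from separate animals or from pooled tissue, so the spread between them may be technical in part. Libraries were made with the SMART-Seq v4 kit, a method for very small inputs that copies polyadenylated RNA and amplifies the copies by PCR.

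The choroid plexus is a frond of tissue inside each brain ventricle. A single layer of cuboidal epithelial cells, joined by tight junctions, covers a core of leaky capillaries, fibroblasts and macrophages. The epithelium pumps sodium, chloride and bicarbonate into the ventricle, with water following, and so makes cerebrospinal fluid. It also moves vitamins, hormones and metals between blood and fluid and secretes carrier proteins, of which transthyretin is the best known.

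The 5 libraries held 16021690 to 25854664 counts, and 22148 to 24824 genes had a read. Values are CPM (read counts scaled to a common library size) scaled by TMM, a factor that removes differences in composition between libraries, and spread is the coefficient of variation (CV, SD over mean) of the 5 values. Levels of different genes are compared as TPM, which also divides by exon length. Of 10554 genes whose mean reached 5 CPM, 3074 (29.1%) had a CV under 10% and are called steady, and 280 (2.65%) had a CV above 50% and are called variable. The median CV of the 10554 genes was 13.6%. Across these genes the log2 CPM of library pairs correlated with Pearson r of 0.932 to 0.984, and every pair differed by more than sampling noise, by a chi-square of their counts, and all 5 were kept as separate samples. Some libraries stood apart: replicates 5, 1 and 4 carried far more oligodendrocyte transcripts than replicates 2 and 3, and replicate 1 was the lowest of the 5 for many transport and secretory genes. In bulk tissue, fewer cells of a type and less RNA per cell cannot be told apart.

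The marker genes of the epithelium were abundant in every library. Ttr, which encodes transthyretin, the carrier of thyroxine and retinol in cerebrospinal fluid, measured 90395, 111077, 123378, 135808 and 98234 CPM in replicates 1 to 5. It was the gene with the most counts in all 5 libraries and took 9.76% to 12.9% of each. Otx2, the homeobox factor that specifies and maintains choroid plexus, measured 433, 404, 512, 448 and 460.5 CPM. It was steady, with a CV of 8.87%, and replicate 2 was the lowest. Folr1, the folate receptor that carries folate into the fluid, measured 779, 1867, 1897, 2058 and 1577 CPM. Kl, which encodes klotho, measured 1476, 2813, 2931, 2269 and 2990.5 CPM, and Aqp1, the apical water channel, measured 161, 315, 358, 344 and 270.2 CPM. For these 3 genes replicate 1 lay below the other 4, which gave CVs of 31.2%, 25.5% and 27.4%. All 5 markers of the labelled tissue were thus present in all 5 libraries.

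A few genes held much of the RNA. Ranked by mean CPM of the library total, 472 genes held 50% of all counts, and the number within single libraries ran from 386 in replicate 4 to 574 in replicate 1. The 10 leading genes of each library took 19.1% to 22.5% of its counts, and the 40 leading genes 25.3% to 29.3%. Enpp2, which encodes the secreted lysophospholipase autotaxin, came next after Ttr, at 37220.1, 57000.2, 50294, 49146 and 52622 CPM, with replicate 1 the lowest.

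**Figure D1:**
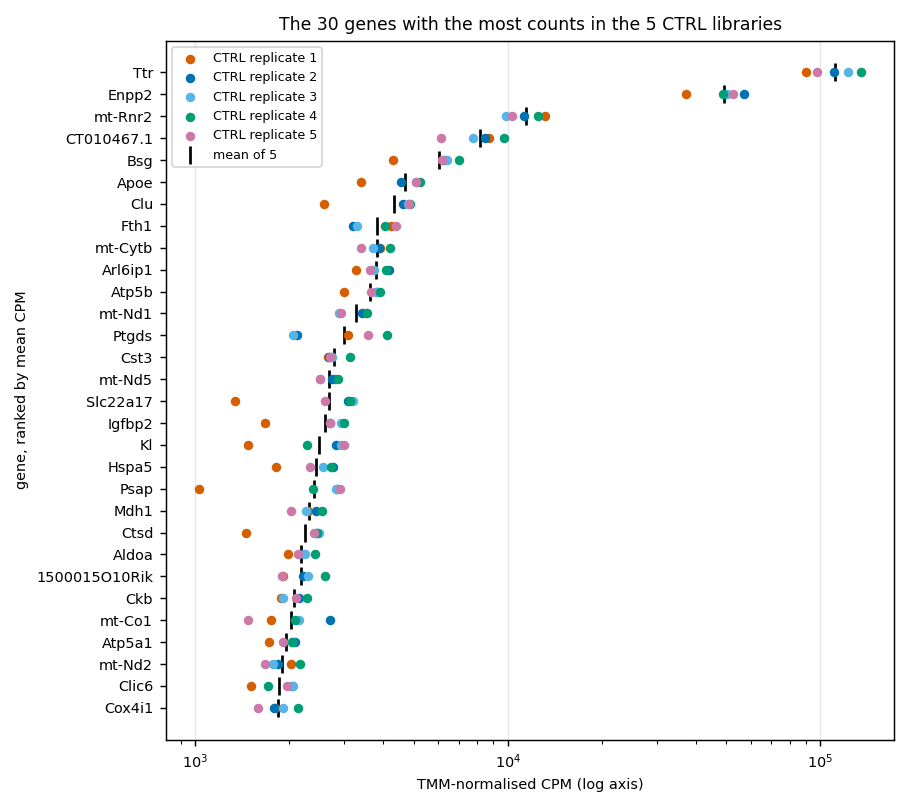
TMM-normalised CPM (log axis) of the 30 genes with the most counts in the 5 CTRL libraries, 1 point per library and a black bar at the mean. Ttr (mean 111778 CPM) and Enpp2 (49256 CPM) stand above the rest, and replicate 1 lies to the left for Clu, Slc22a17, Igfbp2, Kl, Psap and Ctsd.

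Sorted by what their products do, the 40 genes with the most counts were led by secreted proteins. The 9 secreted products (Ttr, Enpp2, Apoe, Clu, Ptgds, Cst3, Igfbp2, Col9a3 and 1500015O10Rik, the gene of augurin) together took a mean of 18.1% of all counts. Respiratory chain and ATP synthase genes also numbered 9 (mt-Cytb, mt-Nd1, mt-Nd2, mt-Nd5, mt-Co1, Atp5a1, Atp5b, Cox4i1 and Cox8a) and took 2.26%. Another 5 served energy supply in the cytosol: Mdh1, Aldoa, Pkm, Ldhb and the creatine kinase gene Ckb. The 6 transporters, channels and membrane receptors were Bsg, Slc22a17, Kl, Clic6, Folr1 and Trpm3. Bsg encodes basigin, the partner subunit of the lactate transporters, and measured 4299, 6258, 6414, 6963 and 6162 CPM. Psap and Ctsd stood for the lysosome, Hspa5 for the endoplasmic reticulum, Fth1 for iron storage and Actb for the cytoskeleton, while Itm2b and Arl6ip1 encode other membrane proteins. Ribosomal RNA supplied mt-Rnr2 and CT010467.1, and the last pair, Lars2 and Cab39l, encode a mitochondrial leucyl-tRNA synthetase and a partner of the kinase LKB1. Psap, which encodes the precursor of the saposins, had the largest CV of the 40, 33.2%, with 1025, 2848, 2825, 2387 and 2909 CPM. Ldhb, the heart-type lactate dehydrogenase subunit, had the smallest, 5.91%, with 1635, 1755, 1789, 1911 and 1699 CPM. Replicate 1 was the lowest for Psap, whereas the 5 values of Ldhb lay close together.

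Per length, Ttr was again first at 228466 ± 20570.4 TPM (SD, n = 5), and Enpp2 was at 20782 ± 2939 TPM. After Gm23935, mt-Rnr2, mt-Nd1, mt-Cytb, CT010467.1, Bsg and Mir6236, the order ran through 1500015O10Rik at 5864 ± 355, Cox8a at 5791 ± 388, Cst3 at 5343 ± 198 and Apoe at 5317 ± 699 TPM. The first pair and the last pair of these 4 lay within each other's spread, while Cox8a and Cst3 differed by more than either SD. Cst3 encodes cystatin C, a secreted protease inhibitor, and measured 2651, 2682, 2729.6, 3114 and 2688 CPM, a narrow band. Gm23935 and Mir6236, annotated as short RNAs of 57 and 123 bases, also ranked among the first 15 by TPM. Dividing by so small a length inflates TPM, and by mean CPM of the library total they ranked 225 and 399. Whether their reads came from these short RNAs was not tested. Of the 13 proteins encoded by mitochondrial DNA, 8 passed 5 CPM, led by mt-Nd1 at 8343 and mt-Cytb at 8126 TPM. The genes mt-Co2, mt-Atp6, mt-Atp8 and mt-Nd4l are listed at 0 in all 5 libraries, and mt-Co3 had 1 read in all. Every cell with a respiratory chain uses these genes, so the zeros were taken as a property of the deposited table and not as a level. The sums of mitochondrial reads given here are therefore incomplete.

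The wider list of 20 epithelial marker genes, which includes the 5 above, passed 5 CPM in full and took 17.5% ± 1.53 of the counts (SD, n = 5). By length-corrected level, Ttr and Enpp2 were followed by Kcnj13 at 2168 ± 156, Folr1 at 1714 ± 460.03, Sostdc1 at 1634 ± 185 and Cox8b at 1387 ± 204 TPM. Kcnj13 encodes the apical potassium channel Kir7.1, and Sostdc1 an extracellular inhibitor of BMP and Wnt signals. None of the 20 was variable, beside 2.65% of all genes of at least 5 CPM, and 5 were steady, beside 29.1%. The 5 were Kcnj13, Calml4, Msx1, Otx2 and Prlr, the prolactin receptor. Kcnj13 was the tightest, at 1040.2, 1259, 1137, 1157 and 1046 CPM (CV 7.97%), and Folr1 the widest. Replicate 1 was the lowest library for 15 of the 20, beside 30.1% of all genes of at least 5 CPM. The list's median CV was 15.3% over 5 libraries and 10% without replicate 1.

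Promoter sequence just before the annotated start site is shown for genes that mark this epithelium or its steady output, as a reference for the member genes and not as a test. The sequences are from RefSeq on GRCm38.p6, the 100 bases before the RefSeq start, 5′ to 3′ on the gene's strand. In the GENCODE annotation used for gene lengths, the outermost start can lie further upstream. The stretch of Cst3, and that of Dnaja3 below, lies inside the GENCODE gene. Those of Vps4a, Mobp and Scg2 below overlap it. Capitals mark a match to the letters TATAAA, searched on both strands.
Kcnj13 (chr1:87394730-87394829, minus strand): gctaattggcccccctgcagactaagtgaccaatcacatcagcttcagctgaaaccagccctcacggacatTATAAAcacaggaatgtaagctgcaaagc
Cst3 (chr2:148875513-148875612, minus strand): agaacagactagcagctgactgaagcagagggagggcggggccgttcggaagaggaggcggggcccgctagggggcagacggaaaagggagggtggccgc
Kl (chr5:150952507-150952606, plus strand): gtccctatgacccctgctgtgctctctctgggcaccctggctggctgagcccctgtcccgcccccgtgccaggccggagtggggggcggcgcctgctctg
The match in the Kcnj13 sequence begins 29 bases before the start site, and no match lies in the 100 bases shown for Cst3 or Kl. Over all 32851 RefSeq mouse promoters in the table, each 300 bases long, 13.6% held the letters on either strand. A comparison of that share between groups of genes was void, since the table matched only 66% of the 100 genes with the most counts and 72.1% of the variable genes.

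Genes of the pumps, channels and carriers that make cerebrospinal fluid were expressed in all 5 libraries. The list of ion and water transport genes held 26 members, of which 24 passed 5 CPM. Kcnj13 led by TPM, followed by Clic6 at 1157 ± 154, Car2 at 1152 ± 99.7, Kcne2 at 1088 ± 99, Fxyd1 at 1017 ± 91 and Atp1b1 at 638 ± 73.9 TPM. From Clic6 to Fxyd1 each gene lay within the SD of its neighbour, but Car2 and Fxyd1 differed by more than either SD. Car2, the cytosolic carbonic anhydrase that supplies bicarbonate, was the steadiest of the list. It measured 1155, 1125, 1103, 1149 and 1160.2 CPM, a CV of 2.09%. Atp1b1 encodes a beta subunit of the sodium pump and Fxyd1 a regulator of it. The NKCC1 cotransporter gene Slc12a2 was at 154 ± 29.9 TPM, and the bicarbonate transporters Slc4a10, Slc4a2 and Slc4a5 were at 291 ± 83.3, 251 ± 74.7 and 161 ± 42.8 TPM. Of the list, 4 of the 24 members of at least 5 CPM were steady, beside 29.1% of all genes, and 0 variable, beside 2.65%. The median CV was 19.6%, or 9.08% without replicate 1. Slc12a7, a potassium-chloride cotransporter gene, had the largest CV, at 24.2, 38.8, 64.3, 46 and 60.5 CPM.

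Genes for moving vitamins, hormones and other organic solutes were mostly lowest in replicate 1. All but 1 of the 24 members passed 5 CPM, the exception being Abcb1a, the drug efflux pump of brain endothelium, at 2.2 ± 2.12 CPM (SD, n = 5). Folr1 and Slc22a17, a receptor for lipocalin-bound iron, led at 1714 ± 460.03 and 1427 ± 366 TPM. Slc31a1 (copper), Slco1c1 (thyroxine), Slc29a4 (monoamines) and Slc2a12 (glucose) followed at 596, 559.9, 554 and 334 TPM. No member was steady, beside 29.1% of all genes, and none variable, beside 2.65%. The median CV was 24.5%. Replicate 1 was the lowest library for 20 of the 23, beside 30.1% of all genes. Its median log2 ratio to the median of the other 4 libraries was -0.90. Slco1c1, for instance, measured 834, 1409.6, 1235, 1254 and 1238 CPM, with replicate 1 below the other 4. Without replicate 1 the list's median CV was 8.55%. Slco1a5, an organic anion transporter gene, had the smallest CV (11.4%) and Abcc4, the efflux pump MRP4, the largest (32.7%).

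**Figure D2:**
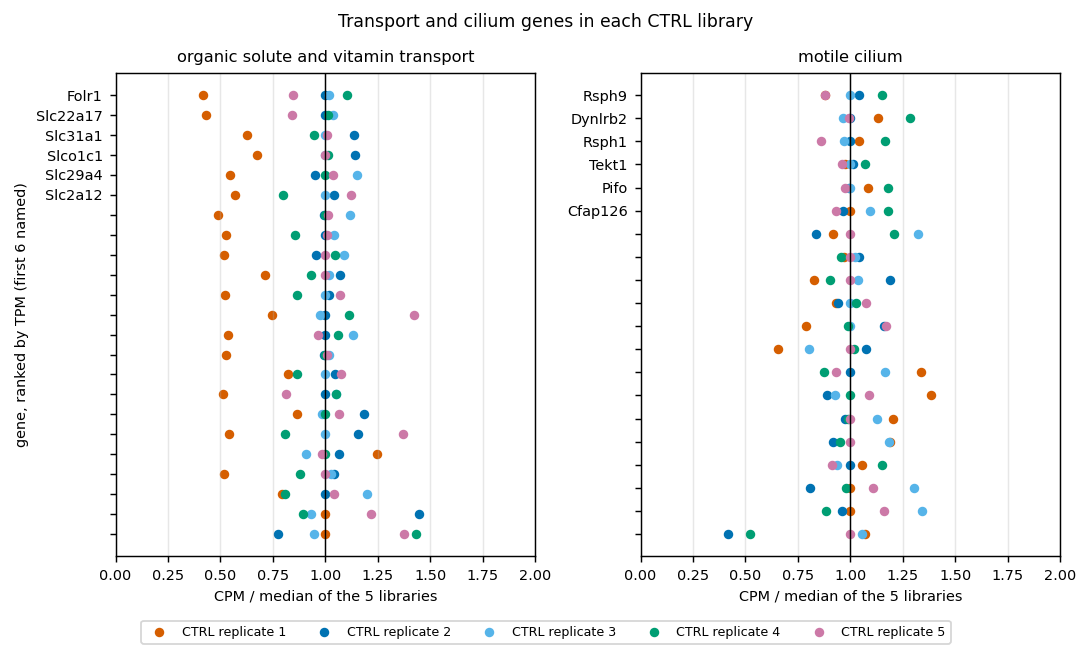
CPM of each CTRL library divided by the median of the 5 (horizontal axis) for organic solute transport genes (left) and motile cilium genes (right) of at least 5 CPM, ranked by TPM, 1 point per library, with the first 6 of each list named. Replicate 1 is the lowest for 20 of the 23 transport genes and for 4 of the 20 cilium genes, beside 30.1% of all genes.

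Among claudins, the strands of the tight junction, Cldn2 stood first. This claudin forms a pore for cations and water, and it measured 337, 512, 637, 556 and 585 CPM, or 384 ± 75.4 TPM. Cldn1 was at 158 ± 30.5 TPM, Cldn3 at 78.2 ± 8.67 and Cldn9 at 74.4 ± 12.8, the last pair within each other's spread. Cldn12 followed at 21.3 ± 5.43 TPM. Cldn5, the claudin of blood vessels, was at 14.4 ± 10 TPM and variable, with 15.9, 3.95, 3.47, 7.28 and 9.95 CPM. Cldn11, a claudin of myelin, was at 7.32 ± 6.68 TPM and variable, with 7.54, 1.23, 0.372, 6.07 and 12.1 CPM. Its values were high in replicates 5, 1 and 4. No read was counted for Cldn22 in any library, which allows a level of up to 0.119 to 0.182 CPM (3 counts, counting error only). Of the 18 tight junction and adhesion genes of at least 5 CPM, 1 was steady, beside 29.1% of all genes. It was Cgnl1, which encodes the junction adaptor paracingulin (216, 247, 251, 251 and 235 CPM). The 2 variable members of the 18, Cldn5 and Cldn11, stood beside 2.65% of all genes. The occludin gene Ocln and the adhesion gene F11r were at 87.7 ± 20.4 and 138 ± 21.5 TPM.

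Secreted proteins and growth factors beyond the leading genes spanned a wide range. Sostdc1 and the protease inhibitor gene Spint2, at 626 ± 79.4 TPM, came below Clu. Bmp6, Bmp7 and Bmp4 were at 165 ± 42.3, 99 ± 19.6 and 24.3 ± 4.16 TPM, Vegfa at 43.5 ± 6.14 and Igf2 at 34.7 ± 6.13 TPM. Of this list, 1 of the 24 members of at least 5 CPM was steady, beside 29.1% of all genes, and 3 variable, beside 2.65%. The median CV was 21.6%, or 13.2% without replicate 1. The steady member was Cst3, and the variable members were Fgf1, Apod and Wnt5a. Apod, which encodes a lipocalin made by oligodendrocytes and fibroblasts, measured 337, 66.9, 50.5, 230.1 and 375 CPM, highest in replicate 5. Ptgds, whose product makes prostaglandin D2 and is also a fluid carrier protein, measured 3070.4, 2109, 2052, 4098 and 3570.3 CPM. Replicates 2 and 3 were the lowest for it.

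Hormone and signal receptors were led by Kl at 652 ± 167 TPM. Prlr stood at 162 ± 9.64, the collagen receptor gene Ddr1 at 80.5 ± 18.1, the serotonin receptor gene Htr2c at 75.5 ± 14.9, the leptin receptor gene Lepr at 42.1 ± 6.16 and Crhr2 at 39.5 ± 8.13 TPM. Ddr1 and Htr2c lay within each other's spread. Of the receptor list, 3 of the 13 members of at least 5 CPM were steady, beside 29.1% of all genes, and 1 variable, beside 2.65%. The median CV was 18%. The 3 steady receptors were Prlr, the lipoprotein receptor gene Lrp1 and the insulin receptor gene Insr (27.4, 29.7, 26.7, 30.6 and 28.5 CPM), and the variable one was Ramp1. Lrp2, the gene of megalin, was low at 0.345 ± 0.454 CPM (SD, n = 5).

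Transcription factors of the epithelium and of cilia were expressed at a range of levels. Among 21 transcription factor genes, Msx1 led at 629.8 ± 47.1 TPM, followed by the inhibitors of differentiation Id3 (449.5 ± 84.1) and Id1 (340.3 ± 82.8), then Otx2 (262 ± 27.1), Id2 (216 ± 25.5) and Foxj1 (82 ± 12.8 TPM). Of this list, 4 of the 16 members of at least 5 CPM were steady, beside 29.1% of all genes, and 0 variable, beside 2.65%. The median CV was 15.5%, and replicate 1 was the lowest for 2 of the 16, beside 30.1% of all genes. The steady factors were Msx1, Otx2, Sox2 and the cilium regulator Rfx2. Sox2 measured 21.8, 20.2, 20.6, 21.3 and 23.6 CPM. Mcidas, which starts multiciliated cell formation, had no read in any library, with the same limit as Cldn22. Foxj1, the master regulator of motile cilia, measured 77, 69.8, 111, 101 and 83.8 CPM.

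Genes of motile cilia were expressed in all 5 libraries. Choroid plexus epithelial cells bear tufts of cilia. Of 23 cilium genes, 20 passed 5 CPM. Of these 20, 7 were steady, beside 29.1% of all genes, and 0 variable, beside 2.65%. Their median CV was 12.4%, near the 13.6% of all genes of at least 5 CPM. By TPM the list was led by the radial spoke gene Rsph9 at 445 ± 21.7, Dynlrb2 at 414 ± 46.3, Rsph1 at 333 ± 31, Tekt1 at 229 ± 9.83, Pifo at 222 ± 18.1 and Cfap126 at 109 ± 6.13 TPM. Spag6l, a central pair protein gene, was the tightest at 108, 115, 113, 106 and 111 CPM (CV 3.48%). Hydin, another central pair gene, was the widest at 7.94, 3.08, 7.86, 3.88 and 7.44 CPM, and its low values fell in replicates 2 and 4. The summed list ran from 1442 to 1638 CPM.

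Of the 44 lists with a member of at least 5 CPM, the nuclear respiratory chain had the smallest median CV and glycolysis the next, 8.75% and 8.81%, a near tie. That order was not stable: with library totals alone glycolysis was at 5.7% and the respiratory chain at 8.37%, and without replicate 1 they were at 6.55% and 8.38%. Without replicate 2 glycolysis was again the smallest (9.41%), without replicate 4 the reference genes (7.13%) and without replicate 5 the mitochondrially encoded genes (7.73%). Of 30 nuclear genes of the respiratory chain and ATP synthase, 21 were steady, beside 29.1% of all genes, and none variable, beside 2.65%. Cox8a (5791 ± 388 TPM), Ndufa1 (3322 ± 312), Cox4i1 (2892 ± 179.8), Atp5b (2084 ± 134), Ndufa4 (1963 ± 142) and Ndufa2 (1587 ± 151) led. Uqcrc2, a core protein of complex III, had the smallest CV, at 324, 363, 341, 334 and 325 CPM. The widest was Cox8b, a subunit otherwise known from heart and muscle, at 186, 211, 164, 227 and 232 CPM. Replicate 4 was the highest library for 24 of the 30, beside 21.4% of all genes. Among 16 glycolysis genes of at least 5 CPM, 11 were steady, beside the same 29.1%, and 1 variable, beside 2.65%. The steady share depends on level. The respiratory chain and glycolysis lists had median levels of 376 and 571 CPM, and 46.1% of all genes at 200 to 1000 CPM were steady. The variable glycolysis gene was Aldoc, an aldolase of astrocytes, at 89.4, 37.5, 38.1, 69.8 and 137 CPM. Ldhb (2731 ± 51.6 TPM) stood above Ldha (546 ± 30.7 TPM), and Hk1 (87.9 ± 17) above Hk2 (0.325 ± 0.222 TPM). Ldhb and Ldha encode the heart-type and muscle-type subunits of lactate dehydrogenase.

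Of 20 common reference genes, 12 were steady, beside 29.1% of all genes, and 1 variable, beside 2.65%. The list's median CV was 9.53% and its median level 189 CPM. Among all genes at 50 to 200 CPM, 45.1% were steady and the median CV was 10.7%. Hprt, an enzyme of purine salvage, measured 412, 444, 422, 441 and 409.8 CPM. It had a CV of 3.76%, Eef1a1 of 4.92%, B2m of 7.27%, Actb of 7.22%, Rer1 of 8.39%, Gapdh of 9.03%, Sdha of 9.08%, Pgk1 of 8.58%, Ywhaz of 9.48%, Tbcb of 9.57% and Ppia of 9.73%. Rplp0, Tbp, Rpl13a, Polr2a, Gusb and Csnk2a2 lay between 10.5% and 25.4%. Tfrc, the transferrin receptor, was variable, at 14.2, 21.5, 16.3, 16.4 and 43.7 CPM, and its high value was in replicate 5. The list of ribosomal protein genes was taken by symbol prefix, which also takes 17 other entries, kinases of a ribosomal protein, Rps19bp1 and pseudogene names, among 101. Its 87 members of at least 5 CPM had a median CV of 11.6%. Of these 87, 27 were steady, beside 29.1% of all genes, and 0 variable, beside 2.65%. Replicate 5 was the lowest for 62 of them, beside 20% of all genes. Without those entries, left out after seeing the data, 78 genes had a median CV of 11.4%, 25 were steady, 0 variable, and replicate 5 was the lowest for 61. Many ribosomal protein genes have near-identical pseudogenes, so their counts are uncertain.

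The genes with the smallest spread were of moderate level. Vps4a, the ATPase that takes apart the ESCRT-III membrane scission complex, had the smallest CV of all 10554 genes, 0.659%. It measured 64.6, 65.3, 64.9, 65.8 and 65.1 CPM. Next came Cops7a, a subunit of the COP9 signalosome, at 142, 141, 142, 145 and 143 CPM, and Dnaja3, a mitochondrial co-chaperone, at 132, 138, 135, 135 and 134 CPM. These spreads are smaller than the 2.75%, 1.86% and 1.91% that read counting alone gives, so among 10554 genes their exact rank carries little meaning. Kctd2, Ppp1r2, Tmem14a, Sap18, Gmppa, Hnrnpc, C1qbp, Coq2, Casc4, Ppp2ca, Anks3, Nmt1, Slu7, Jpt1, Abcf2, Ncaph2 and Hadh completed the 20 tightest, all with CVs from 1.45% to 1.95%. Among them, Hnrnpc and Slu7 act in RNA splicing, Ppp2ca and Ppp1r2 encode a catalytic subunit and an inhibitor of protein phosphatases, and Coq2 and Hadh are mitochondrial enzymes of ubiquinone synthesis and fatty acid oxidation. The share of steady genes rose from 6.37% at 5 to 10 CPM to 45.1% at 50 to 200 CPM and was 33.8% among the 77 genes of at least 1000 CPM. The promoters of Vps4a and Dnaja3 are shown in the same form as above.
Vps4a (chr8:107031169-107031268, plus strand): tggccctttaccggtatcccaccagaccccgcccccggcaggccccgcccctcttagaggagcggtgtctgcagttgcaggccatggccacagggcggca
Dnaja3 (chr16:4683970-4684069, plus strand): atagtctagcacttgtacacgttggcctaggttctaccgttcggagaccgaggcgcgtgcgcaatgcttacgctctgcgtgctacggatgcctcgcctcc
They had 26 and 23 CG steps in the full 300 bases, beside a median of 7 over all promoters in the table, of 21 over all genes of at least 5 CPM that had an entry and of 22 over the steady ones. Neither stretch of 100 bases holds TATAAA.

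**Figure D3:**
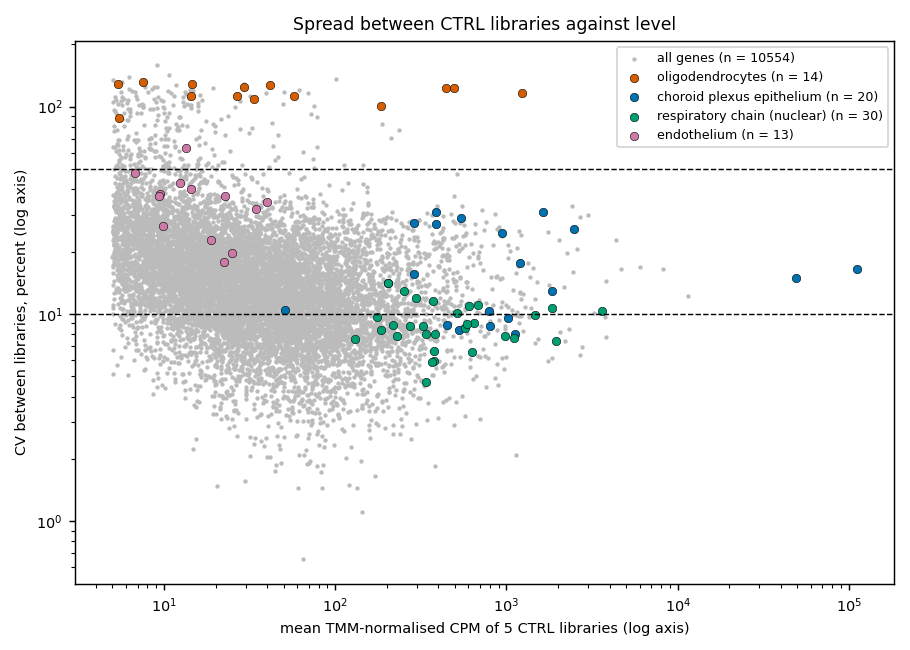
CV between the 5 CTRL libraries (percent, log axis) against mean TMM-normalised CPM (log axis) for the 10554 genes of at least 5 CPM (grey), with 4 lists coloured and dashed lines at 10% and 50%. The 14 oligodendrocyte genes all lie above 50%, 21 of 30 respiratory chain genes lie below 10%, and no epithelial marker lies above 50%.

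The variable genes included every marker of oligodendrocytes, the myelin-forming cells of the brain. All 14 oligodendrocyte markers were variable, with a median CV of 119.6%, beside 2.65% of all genes. Mbp, the basic protein of myelin, measured 1892, 70, 50.6, 739 and 3430.3 CPM. Mobp, another myelin protein, measured 704, 4.71, 1.82, 227 and 1275 CPM. For both, replicate 5 was the highest, then replicate 1, then replicate 4, with replicates 2 and 3 far below. Cnp, Mal and Mog (128 ± 133, 52.1 ± 60.2 and 43.7 ± 55.1 TPM) were further members of high TPM, Cldn11 had the smallest CV of the list (88.2%) and Sox10, the lineage's transcription factor, the largest (131%). The summed list ran 3727, 152, 99.5, 1635 and 7353 CPM in replicates 1 to 5, which is 73.9 times as much in replicate 5 as in replicate 3.

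That order was common among the 280 variable genes. In 166 of them, 59.3%, replicate 5 exceeded replicate 1, replicate 1 exceeded replicate 4, and all 3 exceeded replicates 2 and 3, beside 3.3% of all 10554 genes. In 223 (79.6%), replicates 1, 4 and 5 all exceeded 2 and 3, beside 9.89%. Replicate 5 held the highest value of 182 variable genes and replicate 1 that of 86, beside 23.2% and 20.8% of all genes. Scg2, which encodes the neuroendocrine granule protein secretogranin II, had the largest CV of the 10554 genes, 158%, with 34.2, 0.633, 0.0827, 3.88 and 6.43 CPM. Its highest value was in replicate 1, while that of the myelin genes was in replicate 5. Tmem229a, Tnfaip6, Kif5a, Luzp2, Pex5l, Sox10, Ugt8a, Tppp, Olig2, Acsbg1, Mag, Fa2h, Tmem130, Gjc3, Mog, Mobp and Prr18 were also among the 20 most variable. Kif5a, a neuronal kinesin, measured 140.4, 3.36, 0.993, 34.6 and 325 CPM, highest in replicate 5. In the edges of the class, Basp1 (CV 49.8%) fell just below the threshold and Ddit4 (50%) just above it. The promoters of the variable genes Mobp and Scg2 are shown in the same form, as a reference and not as a test.
Mobp (chr9:120149642-120149741, plus strand): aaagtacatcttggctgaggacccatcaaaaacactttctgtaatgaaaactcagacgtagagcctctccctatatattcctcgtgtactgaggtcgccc
Scg2 (chr1:79440027-79440126, minus strand): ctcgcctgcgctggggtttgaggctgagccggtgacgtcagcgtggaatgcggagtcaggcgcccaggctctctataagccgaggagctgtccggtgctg
Neither holds TATAAA in these 100 bases. Mobp had 5 CG steps in its 300 bases and Scg2 had 16, beside a median of 16 over the variable genes that had an entry. The table matched only 72.1% of the variable genes, so CG steps of steady and variable genes were not compared.

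Astrocyte and neuron markers followed a like order at lower levels. Of 12 astrocyte genes, 9 were variable, beside 2.65% of all genes, and 2 steady, beside 29.1%. Gfap, the intermediate filament of astrocytes, measured 149.5, 11.8, 3.18, 50.6 and 161 CPM, and replicate 5 was the highest for 11 of the 12, beside 23.2% of all genes. Slc1a2, the main glutamate transporter, had the largest CV (112%). Sox9 (109.9 ± 13.7 TPM) and Aldh1l1 (59.9 ± 5.03 TPM), although on the astrocyte list, were steady. Sox9 measured 173, 184, 188, 173 and 209 CPM and Aldh1l1 measured 98.9, 119, 108, 112 and 116 CPM. Aldoc, Gfap, S100b and Gjb6 were at 56.8, 45.5, 27 and 14.7 TPM. Of 15 neuron markers, 7 passed 5 CPM and 5 of those were variable, beside 2.65% of all genes. The summed neuron list ran 148, 29.2, 25.9, 62.8 and 137 CPM, highest in replicates 1 and 5. Snap25, a protein of synaptic vesicle fusion, measured 38.3, 5.97, 2.27, 14 and 27.6 CPM, and Dlg4, the postsynaptic density protein, was steady at 7.32, 6.33, 7.49, 6.37 and 7.49 CPM. Tubb3 had the highest TPM of the list (7.2 ± 8.26). Markers of nearby brain regions were mostly low: 2 of 9 striatal, 4 of 7 thalamic and 2 of 8 hippocampal markers passed 5 CPM. Ppp1r1b, the striatal phosphoprotein DARPP-32, was the exception at 1092, 1220.2, 1279, 1375 and 1248 CPM and was steady, while Drd1 and Drd2, the striatal dopamine receptors, were at 0.161 ± 0.217 and 0.167 ± 0.131 CPM (SD, n = 5). Of 12 ependymal markers, 11 passed 5 CPM, with 2 variable, beside 2.65% of all genes, and 3 steady, beside 29.1%. The variable ones were Tmem212, at 16.7, 5.46, 0.579, 10.3 and 28.9 CPM, and Ccdc153, at 17.1, 5.34, 2.23, 9.77 and 24.9 CPM. Tekt1 and Pifo, shared with the cilium list, were among the steady ones. The progenitor and neuroblast list had 1 of 8 members above 5 CPM, Cd24a, at 44.9, 28.9, 20.6, 31 and 34.7 CPM.

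**Figure D4:**
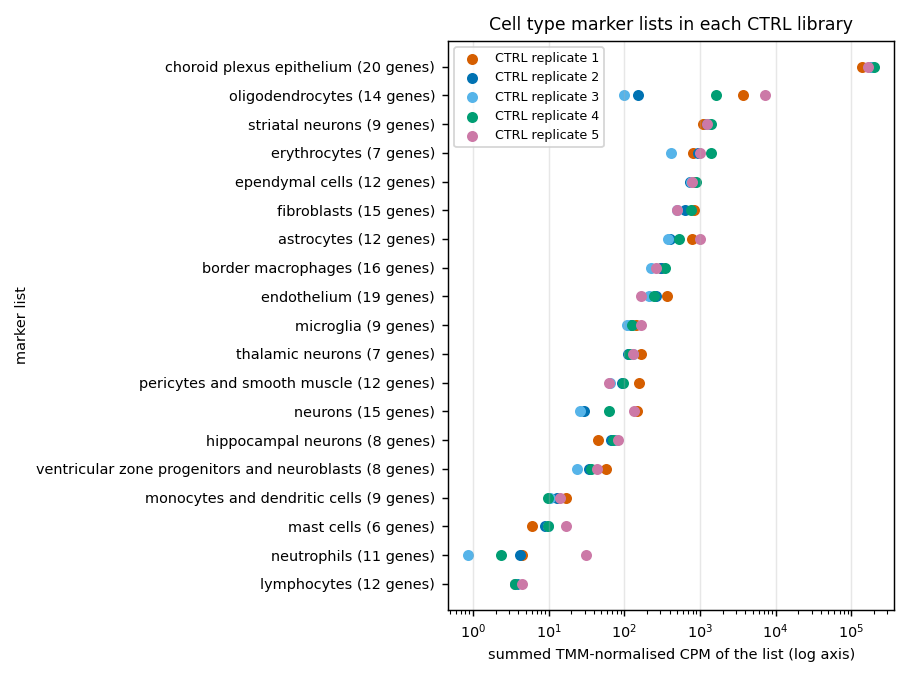
Summed TMM-normalised CPM (log axis) of 19 cell type marker lists, 1 point per CTRL library. Epithelial markers lie between 138685 and 200347 CPM, while the oligodendrocyte sum spreads from 99.5 to 7353 CPM.

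The summed vessel and stromal lists had their highest value in replicate 1. The 19 endothelial markers summed to 363, 266, 215, 249.8 and 168 CPM, highest in replicate 1 and lowest in replicate 5. Replicate 1 was the highest for 11 of the 13 that passed 5 CPM, beside 20.8% of all genes, and replicate 5 the lowest for 11, beside 20%. Plvap, the diaphragm protein of the fenestrated capillaries of this tissue, measured 45.4, 42.2, 34.3, 33.1 and 17.1 CPM and led by TPM at 42.5 ± 14.9. Ly6c1, Ramp2, Emcn, Egfl7 and Esam came next, at 33.2, 18.4, 18.1, 12.9 and 7.98 TPM. Kdr, a VEGF receptor, had the smallest CV (17.7%) and Flt1, another, the largest (63%). The pericyte and smooth muscle list summed to 157, 93.9, 65.1, 96.1 and 63.6 CPM. Its variable members were 3 of the 6 of at least 5 CPM (Rgs5, Acta2 and Mcam), beside 2.65% of all genes. Pdgfrb, the pericyte growth factor receptor, measured 18.1, 15.7, 8.31, 14 and 3.63 CPM. Fibroblast markers summed to 839, 640.3, 496, 760.1 and 504 CPM and were led by Mgp (316 ± 84.3 TPM), Ogn, Lum, Dcn, Col1a2 and Pdgfra. The variable members were Aldh1a2 and Slc6a13, both known from the meninges. They were 2 of the 10 fibroblast markers of at least 5 CPM, beside 2.65% of all genes. Aldh1a2, which makes retinoic acid, measured 22.7, 2.73, 2.65, 13 and 20.3 CPM, with replicates 1, 4 and 5 above 2 and 3 as for the myelin genes.

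Resident macrophage genes were present and other leukocyte genes scarce. Border macrophage markers summed to 309.7, 308, 224, 348 and 265 CPM and were led by Lyz2, Cd74, C1qa, Pf4, H2-Aa and Csf1r at 151, 105, 64.9, 24.5, 22.9 and 12.1 TPM. None of the 9 above 5 CPM was steady, beside 29.1% of all genes, or variable, beside 2.65%. Lyz2 (lysozyme) measured 84.2, 82.6, 67, 92 and 81 CPM. The microglia list summed to 142, 124, 109, 128 and 164 CPM, highest in replicate 5. P2ry12, a more selective microglial gene, was at 4.46 ± 2.56 CPM (SD, n = 5). None of 12 lymphocyte and none of 11 neutrophil markers reached 5 CPM. The neutrophil sum was 4.45, 4.23, 0.869, 2.37 and 31.1 CPM, and the high value in replicate 5 came mostly from S100a9 (0.507, 0.791, 0.124, 0.607 and 9.28 CPM) and S100a8 (0.788, 0.751, 0.124, 0.364 and 7.83 CPM). Only Zbtb46 among 9 monocyte and dendritic cell markers, and only Kit among 6 mast cell markers, passed 5 CPM. Red cell transcripts summed to 814, 931, 414, 1383 and 1018 CPM. All 5 members above 5 CPM were highest in replicate 4, beside 21.4% of all genes, and lowest in replicate 3, beside 14.7%. Hbb-bs, a beta globin, measured 417, 512, 243, 741 and 562 CPM. Reads shared by the near-identical globin genes cannot be assigned with certainty.

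Genes for iron storage and copper transfer led the metal handling list. Fth1, Atox1, Mt3, Slc31a1, Ftl1 and Mt1 were the first 6, at 2708, 2446, 1443, 596, 536 and 392 TPM. Atox1 is the copper chaperone and Mt3 a metallothionein of brain. Of this list, 1 of the 16 members of at least 5 CPM was steady, beside 29.1% of all genes, and 2 variable, beside 2.65%. The median CV was 24.9%, or 16.3% without replicate 1. Hfe, the hereditary iron overload gene, was steady at 136, 164, 149, 173 and 154 CPM, and Mt2 and Tfrc were variable. In the retinoid list, the retinol dehydrogenase gene Rdh5 was at 602 ± 75.8 TPM, and Stra6, the receptor for retinol-binding protein, was at 80.7 ± 20.8 TPM. The retinoid list had 11 members of at least 5 CPM. The 1 steady member was Rara, beside 29.1% of all genes, and the 3 variable ones were Aldh1a1, Aldh1a2 and Rbp4, beside 2.65%.

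In the amyloid and lipoprotein list, Cst3, Apoe, Clu, Itm2b, Aplp2 and Apod led, and App was at 192 ± 40.6 TPM. Of the list's 13 members of at least 5 CPM, 3 were steady, beside 29.1% of all genes, and 1 variable, beside 2.65%. The median CV was 18.7%. Without replicate 1 the median was 7.25%. Complement was led by Clu and by the membrane inhibitor gene Cd59a (524 ± 30.2 TPM, steady at 379, 409, 374, 427 and 355 CPM). C3 was at 2.25 ± 2.51 CPM (SD, n = 5), and C1qb, C1qa and C1qc were at 107, 64.9 and 38.3 TPM. Antigen presentation was led by B2m (636 ± 49.3 TPM), Cd74, H2-D1, Tapbp, H2-K1 and H2-Ab1. Tapbp, the tapasin of peptide loading, measured 70.4, 144, 149, 148 and 148 CPM, with replicate 1 below the rest. Within the interferon list, Ifi27 (1550.4 ± 138 TPM), Ifitm3 and Bst2 were the highest, and 14 of 20 passed 5 CPM. Of the 14, 1 was variable, beside 2.65% of all genes. It was Ifit3, at 9.91, 3.36, 2.4, 6.01 and 6.71 CPM. Replicates 1 and 4 were each the highest for 7 of these 14 genes, beside 20.8% and 21.4% of all genes.

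Genes that answer quickly to handling, hormones or time of day were not uniform. Immediate early genes were low, with 11 of 21 above 5 CPM and a median CV of 28.4%. Among the 11, 1 was variable, beside 2.65% of all genes, and 1 steady, beside 29.1%. Fos measured 4.28, 2.37, 1.28, 2.55 and 1.29 CPM, and Egr1, the variable member, measured 18, 7.51, 3.47, 11.2 and 7.6 CPM. Clock genes had a median CV of 21%. None was steady, beside 29.1% of all genes, or variable, beside 2.65%. Dbp, an output gene of the clock, measured 45.7, 27.1, 27.4, 30.8 and 32.9 CPM, and Bhlhe40 had the largest CV of the list (44.7%). In the glucocorticoid list, Sgk1, a kinase that controls sodium transport, was abundant at 837, 1010.4, 984, 1049 and 1014 CPM and 487 ± 29.6 TPM. It was the 1 steady member of the 12 of at least 5 CPM, beside 29.1% of all genes. The 2 variable members were Mt2 and Ddit4, beside 2.65%. Among 16 heat shock genes, 4 were steady, beside 29.1% of all genes, and 1 variable, beside 2.65%. The variable one was Hspa1b, at 3.32, 5.42, 19.4, 14.8 and 8.78 CPM. Its highest value was in replicate 3, as was that of Dnajb1 (92.2, 122, 234, 183 and 96.2 CPM). Cell cycle genes were low: 8 of 15 reached 1 CPM and 3 passed 5 CPM. Mki67, the proliferation marker, was at 0.511 ± 0.281 CPM (SD, n = 5).

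Secretory pathway and cholesterol synthesis genes were also mostly lowest in replicate 1. Of 20 endoplasmic reticulum genes, 4 were steady, beside 29.1% of all genes, and replicate 1 was the lowest for 13, beside 30.1%. Hspa5, the chaperone BiP, led at 1399 ± 159.98 TPM and measured 1812, 2760.1, 2570.01, 2717 and 2325 CPM, and Calr, Pdia3, Hsp90b1, Pdia4 and Spcs1 were at 963, 876, 734, 457 and 434 TPM. Replicate 1 was also the lowest for 17 of 21 cholesterol synthesis genes, beside the same 30.1%. Of the 21, 2 were steady (Mvd and Lss), beside the same 29.1%. Hmgcs1, an early enzyme of the pathway, measured 149, 192, 178, 156 and 209.8 CPM.

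**Figure D5:**
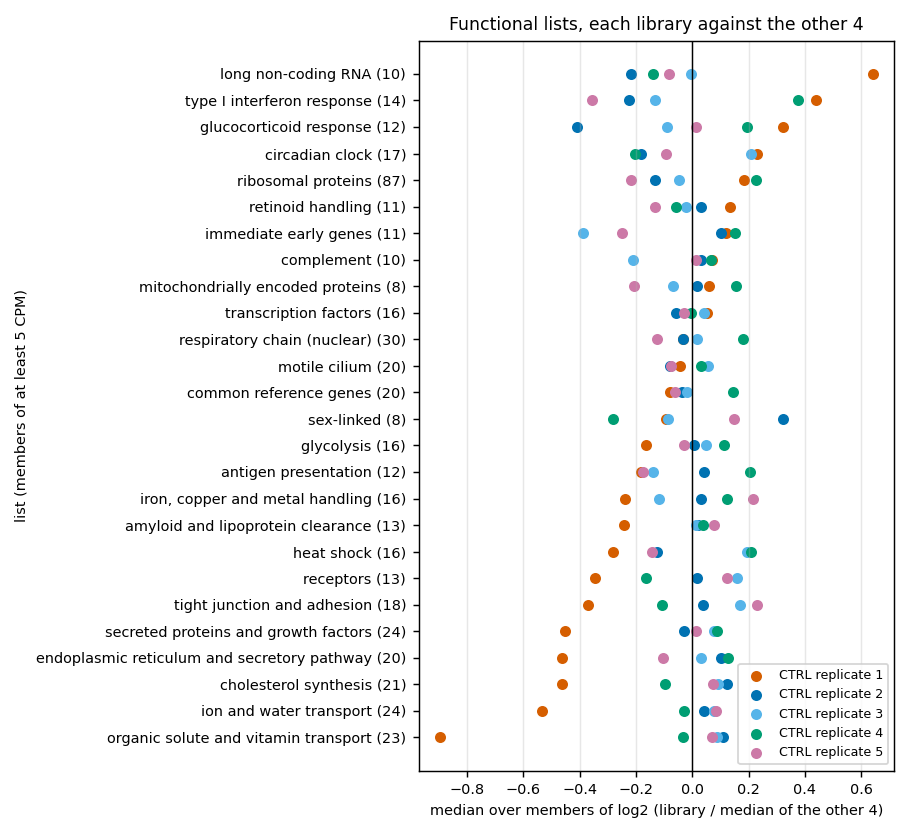
Median over list members of the log2 ratio of each CTRL library to the median of the other 4 (horizontal axis), for functional lists with at least 8 members of at least 5 CPM (number in brackets), 1 point per library. Replicate 1 lies between -0.90 for organic solute transport and 0.64 for long non-coding RNA.

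Replicate 1 was often the lowest among abundant genes. It was the lowest library for 64 of the 100 genes with the most counts, beside 30.1% of all genes of at least 5 CPM. Both shares are on the TMM scale. The TMM factor of replicate 1 was 1.11, beside 0.951 to 0.993 in the other 4, which lowers its scaled values. As a share of library totals, Ttr was lower in replicate 5 (9.76%) than in replicate 1 (10.02%). The count of 64 was not repeated on library totals. Replicate 1 was also the highest for 9 of 10 long non-coding RNA genes, beside 20.8% of all genes, among them Malat1, a nuclear RNA, at 643, 327, 408, 423 and 340.04 CPM. Reads on mitochondrial genes took 3.38% of its counts, beside 2.5% to 2.95% in the other 4, and it had the most detected genes and the fewest counts. Their part in the difference was not tested. Without replicate 1, 4148 genes were steady and 240 variable. Without replicates 1 and 5, a choice made after seeing the data, 4888 were steady and 93 variable, and 72 of the 280 variable genes remained so.

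Single genes differed between libraries in other ways. In replicate 1, Trh, the thyrotropin-releasing hormone gene, measured 7.09, 0.158, 0, 0 and 0 CPM over the 5 libraries. The cholinergic receptor gene Chrnb4 had its lowest ratio to the other libraries, at 2.76, 14, 18.5, 12.9 and 14 CPM. Replicate 2 had the highest ratio to the other libraries for Gh, the growth hormone gene, at 12.4, 13.2, 0.0414, 1.52 and 4.36 CPM, although replicate 1 was nearly as high. In replicate 3 the myelin gene Mobp was lowest, and Ccdc194 (1.24, 2.33, 5.71, 1.4 and 2.96 CPM), Hspa1b and Hspa1a were highest. Replicate 4 had its highest ratios to the median of the other libraries for Crabp2 (5.8, 0.396, 0.414, 5.28 and 1.73 CPM), Slc47a1, Slc22a6, Ccn3 and Fn1, although replicate 1 was higher than replicate 4 for Crabp2. Crabp2, Slc47a1 and Slc22a6 are known from meningeal fibroblasts. Replicate 5 had its highest ratios for Kif5a, Tmem229a, Mobp, Tmem130 and Bcas1, although Tmem130 was higher in replicate 1. Rpl19-ps3, a ribosomal pseudogene, was low in replicate 5 and at 0 in replicate 3 (13.2, 7.36, 0, 6.25 and 0.112 CPM). Replicate 5 was also low for Cidea, a lipid droplet protein, as was replicate 3 (15.6, 14, 2.19, 16.5 and 2.74 CPM).

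The sex-linked genes gave 1 picture in all 5 libraries. Ddx3y, a Y-linked helicase gene, measured 115, 153, 118, 101 and 137 CPM, and Uty, Eif2s3y and Kdm5d, all Y-linked, were at 44.4 ± 6.02, 31.3 ± 7.5 and 22.1 ± 4.06 CPM (SD, n = 5). Xist, the RNA that silences an X chromosome in female cells, measured 1.07, 0.949, 1.12, 1.09 and 2.07 CPM. Their X-linked partners Ddx3x, Kdm6a, Kdm5c and Eif2s3x were at 190.1 ± 28.1, 23.9 ± 4.33, 28.6 ± 3.91 and 7.01 ± 1.19 CPM, and Tsix, antisense to Xist, at 1.22 ± 0.211 CPM. Without stated strand use, reads of Xist and Tsix cannot be told apart.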

How the data were processed

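The authors deposited unnormalised counts of reads for each Ensembl identifier, in 1 table of 17 libraries. Per the submitters' processing notes, Trimmomatic 0.39, STAR 2.6.1b, featureCounts 1.6.4 and the build GRCm38 were used. The annotation release, use of strand and treatment of multimapping reads: not given in the sources used here. No per-sample column was without a sample. Only the 5 CTRL columns entered the analysis. Symbols and exon lengths came from GENCODE M21 (55394 of 55487 identifiers matched). TMM factors were computed among the 5 libraries with edgeR 4.0.16 in R 4.3.3. TPM used exon-union lengths. With 1 group there is no contrast, so groups were not tested; a chi-square of counts compared library pairs. The members, the 46 gene lists (1 of 817 entries, Ahsp, was not matched) and the roles of the 40 leading genes were chosen with earlier results of these data known. Named genes were the 40 with the most counts, the 15 with the highest TPM, the 20 smallest and 20 largest CVs, up to 6 members of highest TPM and the CV extremes of each list, every claudin, reference and sex-linked gene, and genes from among the 5 most extreme ratios per library at each end. Some genes that this rule names are not reported here. Mean levels, Dixon-type gaps and GC or length were also checked. Over 5 equal bins of GC content the median log2 ratio of a library to the others lay within -0.10 to 0.09, and over 5 equal bins of exon length within -0.17 to 0.15, both extremes of length in replicate 4. PCR copies were counted as reads. The call of variable genes was tested only on simulated, independent genes whose spread lay far above or far below the threshold. Genes near the threshold, genes that move together and the call of steady genes were not tested in this way.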

Additional observations from a re-analysis of the deposited data

Results flagged for a closer look

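For a result to be listed here, the highest or lowest of the 5 libraries lay farther from its nearest neighbour than 0.71 of the whole range, on a log2 scale for expression. Chance flags about 1 in 20 groups. Of 290 genes named with a mean of at least 1 CPM, 34 (11.7%) had a library apart, beside 7.55% of all genes of at least 5 CPM, and in 26 of the 34 the library was replicate 1 on the low side. The named genes include ones picked for extreme ratios or spread, which raises their share. Of 46 summed lists, 9 had a library apart, 7 of them with replicate 1 low. The cause was not tested.

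The lowest CPM values of replicate 1 among genes of secreted and lysosomal proteins were Clu at 2573 (others 4624 to 4875), Ctsd at 1452 (others 2402 to 2479), Psap at 1025 (others 2387 to 2909) and Igfbp2 at 1675 (others 2697 to 2991), and Col9a3 at 1129 (others 1527 to 1655) and Spint2 at 830.3 (others 1207 to 1327). Among transporters and other membrane proteins they were Folr1 at 779 (others 1577 to 2058), Slc22a17 at 1339 (others 2600.5 to 3199) and Slc29a4 at 382 (others 663 to 803), then Slc4a2 at 415 (others 857 to 1042), Slc4a5 at 207 (others 382 to 461), Slco1c1 at 834 (others 1235 to 1409.6) and Atp1b1 at 593 (others 848 to 894). Basigin and further membrane proteins showed the same, with Bsg at 4299 (others 6162 to 6963), Itm2b at 1354 (others 1783 to 1989.5), Aplp2 at 494 (others 853 to 1042) and Stra6 at 99.7 (others 210.1 to 224), as did Crhr2 at 52 (others 83.3 to 98.6), Cldn12 at 20.3 (others 38 to 44.4), F11r at 102 (others 156 to 169.6) and Chrnb4 at 2.76 (others 12.9 to 18.5). In the secretory pathway and antigen processing they were Calr at 743 (others 1171 to 1372), Pdia4 at 298 (others 452 to 514) and Tapbp at 70.4 (others 144 to 149), and outside these groups Atp5b at 2980.1 (others 3641 to 3912) and Sgk1 at 837 (others 984 to 1049). Replicate 1 was apart on the high side for Trh at 7.09 (others 0 to 0.158) CPM.

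Summed lists low in replicate 1 were organic solute and vitamin transport at 6292 CPM beside 11380.3 to 12297, ion and water transport at 11127 CPM beside 14110.04 to 15463, and tight junction and adhesion at 1356 CPM beside 1832 to 2019. The same held for complement at 3363 CPM beside 5414 to 5684, a sum dominated by Clu, for amyloid and lipoprotein clearance at 11866 CPM beside 16529.8 to 17738, for the endoplasmic reticulum list at 7497 CPM beside 9809 to 10787 and for cholesterol synthesis at 912 CPM beside 1229 to 1346. In replicate 5 the transcription factor sum was low at 2136 CPM beside 2482 to 2544. Its members did not all follow. Replicate 5 was the lowest for 5 of the 16 of at least 5 CPM, beside 20% of all genes. It was the highest for 3, beside 23.2%. The lymphocyte sum was high in replicate 5 at 4.53 CPM beside 3.6 to 3.84. Only 1 of its 12 members reached 1 CPM, and whether the gap exceeded counting error was not tested.

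Other libraries stood apart in single genes. Replicate 5 was high for S100a8 at 7.83 (others 0.124 to 0.788), S100a9 at 9.28 (others 0.124 to 0.791) and Xist at 2.07 (others 0.949 to 1.12), and low for Id1 at 97.6 (others 164 to 202) CPM. Replicate 4 was high for Cst3 at 3114 (others 2651 to 2729.6) and Lars2 at 2524 (others 1506 to 1656), and replicate 2 for Bmp4 at 28.5 (others 20 to 21.8) CPM.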

How the results depend on the processing

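The counts of steady and variable genes stayed within 1.5 times of 3074 and 280 with DESeq2 size factors (2903 and 261), with library totals alone (2597 and 319) and after thinning every library to the lowest total (3055 and 280). A minimum mean of 1 CPM gave 1236 variable genes, a minimum of 20 CPM gave 49 and no filter gave 15844. Read counting alone gives a median CV of 3.95% over all 10554 genes and 7.29% over the 280 variable ones, the part of the spread that depth limits. With edgeR's tagwise biological coefficient of variation in place of the CV, 0 genes were steady and 200 variable, where the common value was 36.6%; the cause was not tested. Leaving out each library in turn gave 2977 to 4148 steady and 209 to 348 variable genes, 445 to 495 genes for 50% of the counts, and 39 to 40 of the 40 leading genes. Ranking by TPM kept 26 of the 40. Without replicates 1 and 5, an alternative added after seeing the data, 4888 genes were steady and 93 variable. Of 44 list medians of CV, 15 moved by over 1.5 times without replicate 1 and 1 each without replicates 3, 4 and 5. The transport lists fell to 8.55% and 9.08%. Without replicates 1 and 5, 20 of the 44 medians moved. The oligodendrocyte median was then 146%. The neuron median, 104% over 5 libraries, was 13.3% over the members that then reached 5 CPM. No paired analysis was possible because the description has 1 group.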

Other observations

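Of the 280 variable genes, 12 had their highest value in replicate 2, 3 or 4, and they were looked up after their values were seen: Gh, Hspa1b, Cidea, Cish, Epha7, Exph5, Fam49a, Scara3, Ccn3, Adamts1, Acta2 and Ddit4. Cish, a feedback inhibitor of cytokine and growth hormone signalling, measured 35.2, 106, 116, 80.6 and 36.3 CPM. Epha7, an ephrin receptor gene, measured 8.84, 9.73, 1.45, 4.91 and 4.58 CPM, and Adamts1, a matrix protease gene, measured 54.5, 238, 207, 128 and 99.8 CPM.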
